A study of Rattus norvegicus with 54 samples.

Results

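Oxidative phosphorylation makes most of the ATP that neurons spend on signalling, and its machinery sits in the inner mitochondrial membrane as 5 complexes. Complex I (NADH dehydrogenase) and complex II (succinate dehydrogenase) feed electrons into the chain, complex III (cytochrome bc1) passes them on to cytochrome c, complex IV (cytochrome c oxidase) hands them to oxygen, and complex V (ATP synthase) turns the proton gradient into ATP. A few subunits come from the mitochondrial genome, and the rest are encoded in the nucleus, made in the cytosol and imported. The nuclear subunits were chosen by gene name from the deposited table, as protein-coding rows whose symbol belongs to the Ndufa, Ndufb, Ndufc, Ndufs or Ndufv series, to Sdha to Sdhd, to Uqcr, to Cox with a number from 4 to 8 and a letter from a to c, or to Atp5f1, Atp5m or Atp5p. Of the 46505 rows, 23154 are protein-coding, and the members among these were 47 for complex I, 4 for complex II, 11 for complex III, 19 for complex IV and 25 for complex V. The rule used names alone and no measured value, but it was set with earlier results of these data known.

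RNA of the nucleus accumbens, the ventral part of the striatum, was sequenced in 54 libraries from male and female Long Evans rats. The prenatal condition was ethanol (PAE) or a free-choice liquid diet (FCL), and the offspring received water (VEH) or alcohol (AAE) in adolescence. FCL-VEH is called control here. The adolescents were taken at P42 (postnatal day 42), with 24 h since their final treatment, and gave 9 control and 9 PAE-VEH libraries of males and 7 control and 4 PAE-VEH libraries of females. In adulthood, at P90 and with no further challenge, there were 6 control and 6 PAE-AAE libraries of males and 8 control and 5 PAE-AAE libraries of females. At P90 the prenatal and the adolescent exposure came together and cannot be told apart. In the age comparison, age and the time since the last adolescent treatment cannot be told apart either. Neither animal nor litter is named in the labels, so p-values measure the spread between these libraries.

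Library totals lay between 59.1 and 103.8 M counts (median 72.5 M). All 15 medium spiny neuron markers, the genes of the main striatal neuron, were detected, and their summed level lay between 3215 and 11617 CPM (counts scaled to library size, with TMM factors) in single libraries. Markers of choroid plexus, the tissue of the neighbouring ventricle, ran from 23.3 to 3918 CPM summed over 13 genes. In 3 libraries, control female replicate 5, control male replicate 8 and PAE-VEH male replicate 5 at P42, the sex markers went against the label (sex-mismatched libraries). Another 3 libraries stood apart from the rest of their age by their correlation with them: PAE-VEH male replicate 6 at P42, control male replicate 6 at P90 and control female replicate 1 at P90. All stayed in their labelled groups, and values without them are given where they move a result.

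Of all these members, 75 had a mean of at least 1000 counts and 89 a mean of at least 10. The other 17 lay under 10 counts, among them 4 at 0 in every library: Ndufb2, a complex I subunit listed at 0, and the gene copies Ndufb3l1, Uqcrbl2 and Atp5pdl1. By symbol, 23 members are copies of another member, such as Ndufa10l1 and Cox7a2l2, and among these Ndufa10l1 alone reached a mean of 1000 counts. Reads of copies and their parents can be split between them by the counting, so levels of copies are uncertain. A further 81 rows carry such names without being protein-coding and were not members.

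Levels between genes are given as the authors' FPKM (fragments per kilobase of gene, scaled for library size), since that scale takes account of gene length. The 75 abundant members had a median of 94.9 FPKM, against 12.5 FPKM for all 9738 protein-coding rows with as many counts. The highest of all members was Atp5f1b, the catalytic beta subunit of ATP synthase, at 631 ± 74.1 FPKM (SD, n = 54), above 99.9% of the protein-coding rows. Its partner in the catalytic head, Atp5f1a, stood at 409 ± 42.4 FPKM. Atp5f1c, the central stalk subunit that turns inside that head, was listed at 24.0 ± 3.07 FPKM, the lowest of the abundant complex V members. Its row has a length of 4227 bases, against 1847 for Atp5f1a and 1759 for Atp5f1b, which lowers its FPKM at a mean of 7673 counts. Subunits of the same complex thus differed widely on this scale.

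Complex IV had the highest typical level, with a median of 182 FPKM over its 10 abundant members, against 85.5 FPKM for the 36 of complex I, 89.98 for the 4 of complex II, 99.3 for the 8 of complex III and 110.8 for the 17 of complex V. Cox6a1, the broadly expressed form of a small regulatory subunit, led complex IV at 473 ± 94.5 FPKM. Ndufa4, named for complex I but also found in complex IV, led the complex I names at 251 ± 39.9 FPKM. In complex II, the flavoprotein Sdha stood at 142 ± 10.7 FPKM and the iron-sulfur subunit Sdhb at 40.0 ± 5.29. In complex III, Uqcr11 stood at 205 ± 39.6 FPKM, the core proteins Uqcrc1 and Uqcrc2 at 117.1 ± 13.9 and 94.9 ± 8.51, and the Rieske iron-sulfur protein Uqcrfs1 at 66.9 ± 8.71. Uqcrq, at 12.6 ± 2.63 FPKM, was the lowest abundant member of complex III. Its row has a length of 5387 bases, which divides its count of 5126 per library to this low value.

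The electron-carrying core of complex I lay in the middle of the range. Ndufv2 stood at 112.4 ± 17.7 FPKM, Ndufv1 at 82.2 ± 9.18, Ndufs1 at 76.3 ± 6.65, Ndufs7 at 72.03 ± 11.2 and Ndufs8 at 39.5 ± 5.89. The ranges of Ndufv1, Ndufs1 and Ndufs7 over libraries overlapped, and these genes were not compared library by library. Ndufs8 did not overlap with Ndufs1, its highest library being 60.7 FPKM and the lowest of Ndufs1 65.1. Of complex IV, Cox5a, a nuclear subunit of the matrix side, was at 187.3 ± 28.4 FPKM and Cox5b at 86.7 ± 15.3. Ndufa10l1 was the lowest of the 75, at 10.6 ± 2.62 FPKM, while its parent Ndufa10, with a row length of 4664 bases, stood at 24.9 ± 2.19.

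Isoforms known from other tissues were near the bottom. For subunit 6a, the heart and muscle form Cox6a2 was listed at 0.38 FPKM against 473 for Cox6a1. The muscle form Cox7a1 stood at 0.52 FPKM against 58.3 for Cox7a2. Cox8b was at 0.94 FPKM and the testis form Cox8c at 0.0078, against 103.35 for Cox8a. The testis forms Cox6b2 and Cox7b2 stood at 2.95 and 0.083 FPKM, against 184 for Cox6b1 and 181 for Cox7b. Ndufa4l2, a hypoxia-induced relative of Ndufa4, was at 4.04 FPKM. The 3 genes that encode the same mature c subunit of the ATP synthase ring were all expressed, Atp5mc3 at 228 ± 31.8, Atp5mc1 at 81.6 ± 12.4 and Atp5mc2 at 49.4 ± 6.97 FPKM. Ordering the abundant members by counts per kilobase instead of FPKM moved 4 of the 75 by a rank of 1.

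**Figure D1:**
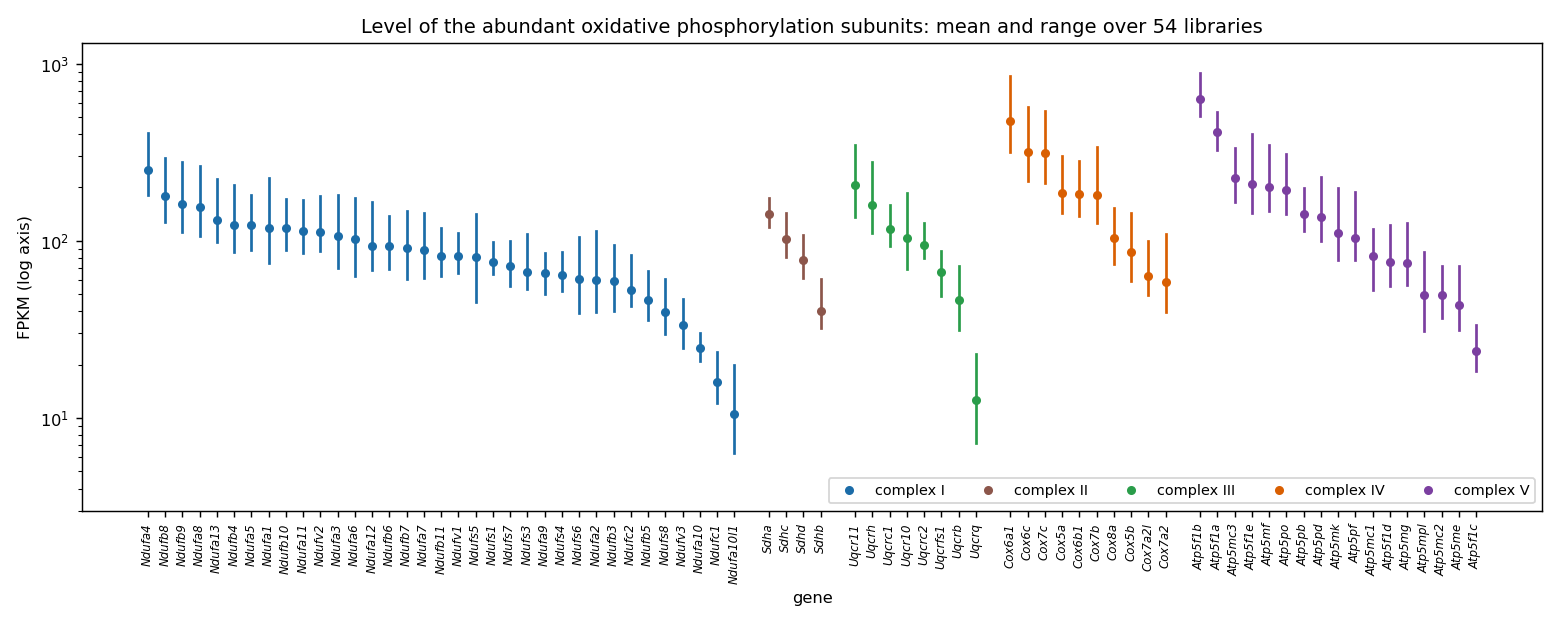
Level of 74 of the members with a mean of at least 1000 counts, grouped by complex and ordered within it. Points are the mean FPKM over 54 libraries and lines the range from the lowest to the highest library, on a log axis; Atp5f1b is highest at 631 FPKM and Ndufa10l1 lowest at 10.6.

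The members rose and fell together from library to library. Each abundant member was set against the mean of the other 74 on the log2 CPM scale, after removing each group's mean. Pearson's r over the 54 libraries had a median of 0.92 and was above 0.8 for 70 of the 75. Chosen after their values were seen, the most closely tied were Atp5mk (0.97), Ndufb8 (0.97) and Atp5mg (0.97), small subunits of complexes V and I. The least were the copy Ndufa10l1 (0.36) and Ndufs1 (0.71), Ndufc1 (0.77), Uqcrc2 (0.77) and Ndufs5 (0.78). The rarely expressed isoforms moved little with the rest, with an r of 0.22 for Cox7a1, 0.24 for Cox6a2 and 0.26 for Ndufa4l2. These points share libraries, depth and scaling, and the correlations are descriptions without a test.

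The promoters, as windows of 300 bases from 250 before to 50 after the annotated start (RefSeq, assembly GRCr8), were searched on both strands for the letters of 3 factors known to act at genes of respiration: GCGCATGC for nuclear respiratory factor 1 (Nrf1), CCGGAAG for GA-binding protein (Gabpa) and AAGATGGC for Yy1. A window was found for 91 members, 66 of them abundant. The Gabpa letters stood in 20 of these 66 windows (30.3%), the Yy1 letters in 15 (22.7%) and the Nrf1 letters in 8 (12.1%), and 32 (48.5%) held any of them. Of all 27457 promoters in that table the shares were 9.22%, 3.44% and 2.66%, and of the 14345 of protein-coding genes tested 14.1%, 4.57% and 4.06%. Among the other 25 members with a window, 1 held the Nrf1 letters, 1 the Yy1 letters and 0 the Gabpa letters. For some members, among them Atp5pf and Uqcrfs1, the window lies inside the listed span of the gene. The start taken for these is not the outer end of the gene's row. A match of letters is a description and not a measured site.
The 4 windows below show how the letters lie, in capitals. Those of Ndufa6 (chr7:115750268-115750567, minus strand) and Atp5me (chr14:1464610-1464909, plus strand) hold all 3 kinds, and those of Atp5pf (chr11:37375052-37375351, minus strand) and Atp5po (chr11:44657434-44657733, minus strand) belong to members past the threshold in the age comparison. Of the 12 members past that threshold with a window, 6 (50%) held any of the letters, near the 48.5% of the abundant members. In Atp5me and Atp5po the Nrf1 letters of both strands overlap in a run of 10 bases. The search counts letters in the printed strand and its complement alike.
Ndufa6: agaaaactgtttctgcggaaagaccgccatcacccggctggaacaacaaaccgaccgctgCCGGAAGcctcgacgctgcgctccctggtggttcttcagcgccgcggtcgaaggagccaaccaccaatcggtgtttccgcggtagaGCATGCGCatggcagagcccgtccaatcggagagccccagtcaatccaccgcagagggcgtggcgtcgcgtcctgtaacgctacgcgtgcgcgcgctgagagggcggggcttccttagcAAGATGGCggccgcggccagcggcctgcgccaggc
Atp5me: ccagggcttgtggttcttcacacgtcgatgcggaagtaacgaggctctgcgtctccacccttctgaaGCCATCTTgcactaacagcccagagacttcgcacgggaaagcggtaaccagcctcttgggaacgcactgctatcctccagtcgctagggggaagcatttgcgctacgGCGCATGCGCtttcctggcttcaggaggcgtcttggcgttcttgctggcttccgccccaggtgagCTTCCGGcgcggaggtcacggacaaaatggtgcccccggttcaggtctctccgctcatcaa
Atp5pf: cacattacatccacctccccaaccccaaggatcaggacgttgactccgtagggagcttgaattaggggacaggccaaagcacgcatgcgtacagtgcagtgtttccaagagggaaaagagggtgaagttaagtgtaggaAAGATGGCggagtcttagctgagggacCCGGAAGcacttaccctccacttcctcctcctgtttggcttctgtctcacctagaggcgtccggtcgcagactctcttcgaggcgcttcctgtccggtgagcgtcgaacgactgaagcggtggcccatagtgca
Atp5po: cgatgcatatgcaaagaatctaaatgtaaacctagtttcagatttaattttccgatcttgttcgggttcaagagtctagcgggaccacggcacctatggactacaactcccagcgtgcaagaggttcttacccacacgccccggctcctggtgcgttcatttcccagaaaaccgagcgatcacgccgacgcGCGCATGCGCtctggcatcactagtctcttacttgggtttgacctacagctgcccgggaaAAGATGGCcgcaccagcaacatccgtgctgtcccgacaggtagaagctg

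To follow the members by library, a score was taken as the mean of their log2 CPM, each gene centred over the 54 libraries, for the 92 members that passed the edgeR filter on low counts over all libraries. In control males the score ran from -0.30 to 0.21 at P42 (median -0.10) and from -0.24 to 0.62 at P90 (median 0.12). In control females it ran from -0.34 to 0.04 at P42 (median -0.08) and from -0.40 to 0.36 at P90 (median 0.06). Control libraries were therefore more spread at P90 than at P42 in both sexes, and the ages overlapped. PAE-VEH males at P42 lay between -0.05 and 0.44 (median -0.003), and the 4 PAE-VEH females at -0.05, 0.01, -0.08 and -0.001. At P90 the 6 PAE-AAE males lay between -0.22 and -0.02 (median -0.13) and the 5 PAE-AAE females at 0.14, 0.04, 0.24, 0.07 and 0.24. The 2 exposed groups at P90 did not overlap with each other, while each lay within the range of its own controls.

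**Figure D2:**
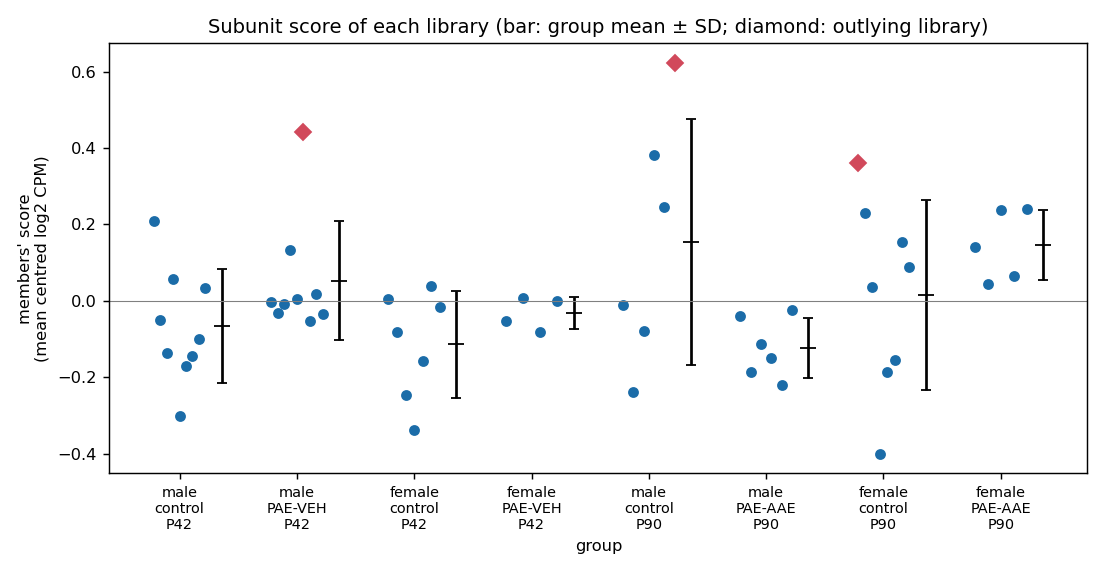
Score of the members (mean centred log2 CPM) in each of the 54 libraries by group; points are libraries, diamonds the 3 libraries that stand apart from their age, and bars the group mean ± SD. Control males at P90 reach from -0.24 to 0.62, and the PAE-AAE males from -0.22 to -0.02.

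The score moved closely with a feature of the whole library, the share of counts in long non-coding RNA (lncRNA). That share was between 0.65% and 0.92% in the 6 libraries with the highest score and between 1.13% and 1.62% in the 6 with the lowest. Pearson's r was -0.87 over 54 libraries (Spearman's rho -0.85), -0.87 after removing group means, and -0.85 without the 2 libraries farthest from the median share. The share of counts in protein-coding genes under 1000 bases went with the score at r = 0.89, and 41 of the 75 abundant members are that short, with a median length of 849 bases for the 75. The short members are themselves counted in that share. The lncRNA share averaged 0.99% ± 0.20 (SD, n = 6) in control males at P90 against 1.17% ± 0.10 (n = 6) in PAE-AAE males, and 1.12% ± 0.28 (n = 8) in control females against 0.97% ± 0.08 (n = 5) in PAE-AAE females. Its part in the results was not tested beyond the fits that hold it as a covariate, given with the comparisons.

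**Figure D3:**
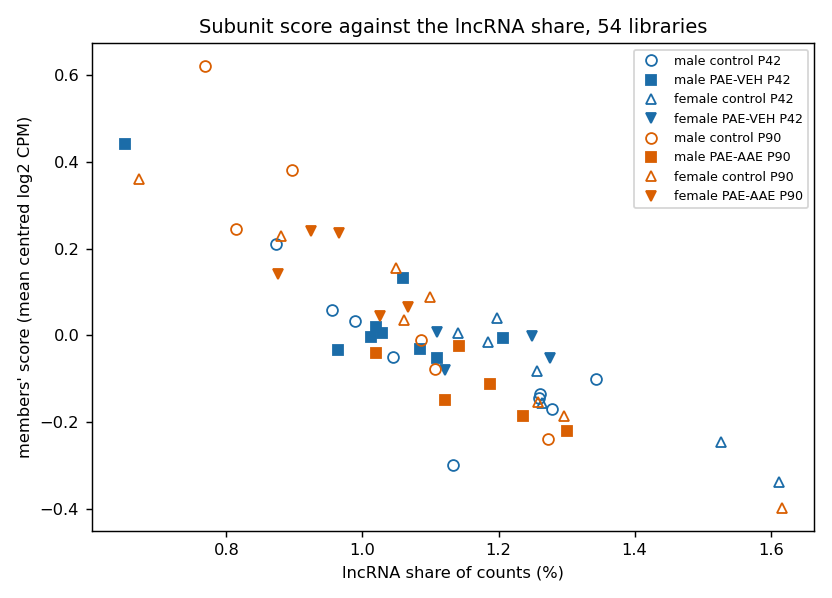
Score of the members against the lncRNA share of counts (%) in 54 libraries; open symbols are controls, filled symbols exposed groups, blue P42 and orange P90. Libraries with a larger share have a lower score (r = -0.87 over all 54).

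Other gene groups went with the members to different degrees. Scores of mitochondrial ribosomal proteins (r = 0.96), carriers and pores (0.96), the citric acid cycle (0.91), assembly factors of the complexes (0.90), cytosolic ribosomal proteins (0.87) and glycolysis (0.86) were close to them. The regulators of mitochondrial biogenesis, which include Nrf1, Gabpa, Yy1 and Ppargc1a, were less so (0.39). Among cell markers, r was 0.74 for microglia, 0.62 for astrocytes, 0.52 for parvalbumin interneurons, 0.27 for choroid plexus, -0.47 for ependymal cilia and 0.04 for medium spiny neurons. Within complexes, the score of complex I went with that of all members at 0.98 and that of complex IV at 0.92. In tissue like this, more cells of a type and more RNA per cell cannot be told apart.

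The age comparison in controls asked what differs between P90 and P42 without ethanol. Averaged over both sexes, 14 of the 90 members tested rose and 0 fell (edgeR quasi-likelihood test, Benjamini-Hochberg adjusted p under 0.05 over all 24065 genes), where 5.07% of all genes tested rose and 2.11% fell. The 14 are 15.6% of the members tested. They comprised 10 of complex I, 3 of the ATP synthase and Cox7a2l, and none belonged to complexes II or III. Changes were small, between 0.23 and 0.35 on the log2 scale among the 14. The median was 0.22 over the 90 members and -0.005 over all genes tested. Of the 90, 85 had a positive change, where 49.1% of all genes did. Members move together from library to library, so such counts are not of independent genes.

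Cox7a2l, which helps complexes III and IV join into supercomplexes and lies on chromosome 6 (16936574 to 16950797), had the smallest adjusted p. In control males it ran from 83.7 to 123.0003 CPM at P42 (median 94.6) and from 97.96 to 170 CPM at P90 (median 117.5). In control females it ran from 84.4 to 103.9 CPM at P42 (median 97.5) and from 83.6 to 166 CPM at P90 (median 116.02). It rose by 0.31 ± 0.09 (log2, SE; adjusted p = 0.025), and 6 of 6 adult males and 6 of 8 adult females lay above the P42 median of their sex, with overlapping groups in both.

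Ndufb8, an accessory subunit of the complex I membrane arm (chromosome 1, 253357878 to 253362936), showed a like pattern. It ran from 90.5 to 138 CPM at P42 and from 98.9 to 198 CPM at P90 in control males, with medians of 107.4 and 136. In control females it ran from 85.4 to 122 CPM at P42 and from 92.7 to 173 CPM at P90, with medians of 105.5 and 126.1. It rose by 0.32 ± 0.09 (adjusted p = 0.0286), with 5 of 6 adult males and 7 of 8 adult females above the P42 median. Again the ages overlapped in each sex.

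Ndufs7 was the single core electron-carrying subunit among the 14. This iron-sulfur protein, which hands electrons toward ubiquinone, rose by 0.24 ± 0.07 (adjusted p = 0.0345), from a median of 67.3 CPM (60.3 to 91.97) to 79.5 CPM (62.1 to 101.6) in males and from 65.3 CPM (57.2 to 71.1) to 76.4 CPM (61.3 to 101.4) in females. The other complex I members that rose are accessory subunits: Ndufa5 (0.25), Ndufa8 (0.35), Ndufa13 (0.28), Ndufa7 (0.28), Ndufb10 (0.23), Ndufs5 (0.29), Ndufb4 (0.29) and Ndufa3 (0.30). Their adjusted p lay between 0.0356 and 0.0475. In the ATP synthase, Atp5pf (0.30 ± 0.09), Atp5pd (0.26) and Atp5po (0.27) rose, all parts of the peripheral stalk that holds the catalytic head still. The fourth gene of that stalk, Atp5pb, did not pass (adjusted p = 0.0528).

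Other core subunits did not pass. In complex I these included Ndufv2 (0.24), Ndufs8 (0.19), Ndufv1 (0.14) and Ndufs1 (0.09), and in complex II Sdhb (0.21), Sdhc (0.20), Sdhd (0.14) and Sdha (0.13). In complex III Uqcrc1 (0.15), Uqcrfs1 (0.12) and Uqcrc2 (0.07) did not pass, nor in complex IV Cox5b (0.23) and Cox5a (0.19). In the ATP synthase, the genes of the catalytic head stood at 0.13 for Atp5f1b and 0.07 for Atp5f1a, and the central stalk gene Atp5f1c at 0.11. Median changes by complex, over abundant members, were 0.24 for complex I, 0.17 for complex II, 0.20 for complex III, 0.23 for complex IV and 0.20 for complex V. All were positive and near each other, and differences between complexes were not tested.

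Among isoforms, Cox8a (0.13), Cox7a2 (0.23), Cox7b (0.28), Cox6a1 (0.23), Cox6b1 (0.14), Ndufa4 (0.20), Atp5mc2 (0.20), Atp5mc3 (0.19) and Atp5mc1 (0.11) did not pass. Neither did Cox7a1 (-0.03), Ndufa4l2 (-0.14), Cox6b2 (0.01) or Cox6a2 (0.46 ± 0.59). The rare Cox8b had the largest fitted change of the members, 1.33 ± 0.48 (adjusted p = 0.0856), and lay in control males at 0.07 to 0.31 CPM at P42 and 0.05 to 1.66 CPM at P90. Its level went with that of Ttr, the defining transcript of choroid plexus, with a Spearman's rho of 0.57 over 54 libraries (Pearson's r 0.90, and 0.77 without the 2 libraries farthest from the median). At so few counts this is a description only.

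**Figure D4:**
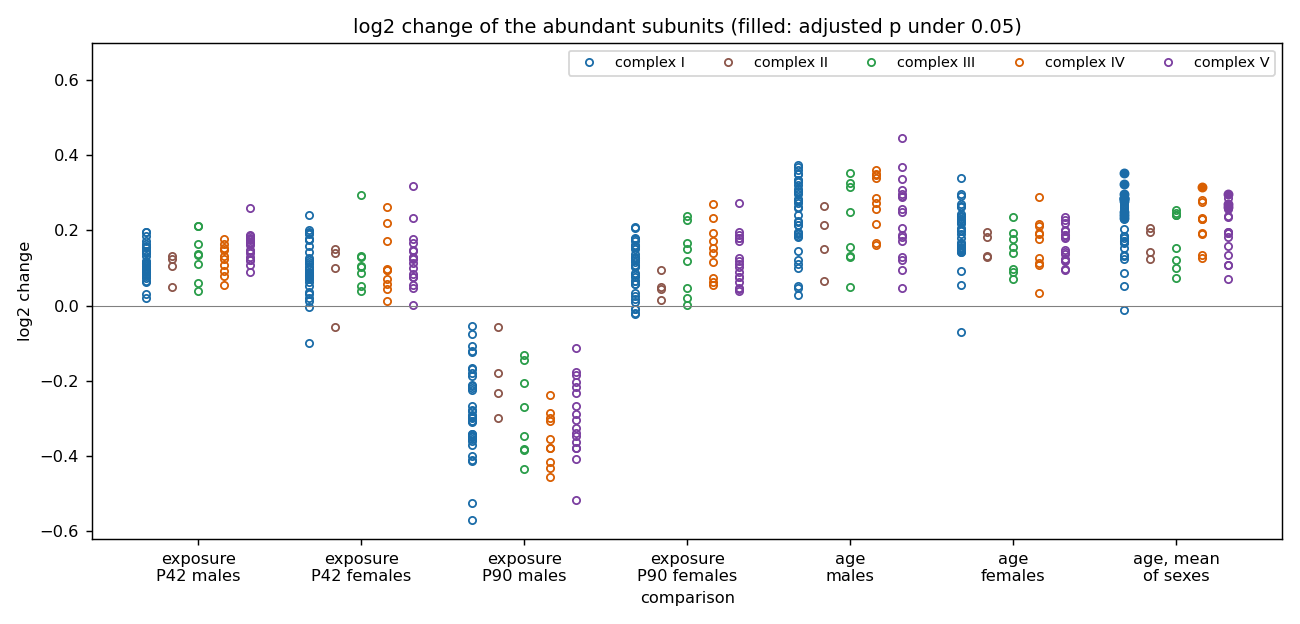
Fitted log2 change of the 75 abundant members in 7 comparisons, in columns by complex; filled points passed an adjusted p of 0.05 over all genes. The 14 filled points all belong to the age comparison averaged over sexes, and the points of exposed males at P90 all lie below 0.

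Taken by sex, 0 of 90 members passed in either. In control males 44 members lay at an unadjusted p under 0.05 (48.9%, where 17.6% of all genes did), with a median of 0.26, and in control females 11 (12.2%, where 15.3% of all genes did), with a median of 0.18. Single libraries moved both counts: in males it ran from 2 without adult replicate 6 (median 0.13) to 64 without adult replicate 2, and in females from 3 without adult replicate 1 to 38 without adult replicate 4. Without the outlying libraries 5 members lay at that p in each sex, with medians of 0.13 and 0.10. Holding the lncRNA share, it was 23 in males (median 0.10) and 3 in females, where the median turned to -0.02. The choroid plexus score as a covariate gave 1 in males and 16 in females. Of all genes 610 (2.53%) passed in males and 0.42% in females. Atp5f1e, the small epsilon subunit, had the smallest p in males (0.45 ± 0.15, adjusted p = 0.0992) and Sdha in females (0.18 ± 0.07, adjusted p = 0.20). Tested as female minus male, the age effect had 0 members past the threshold and 0 at an unadjusted p under 0.05 (8.5% of all genes), with a median of -0.06. Voom and DESeq2 also gave 0 members for that difference. Its median was -0.02 without the outlying libraries, -0.12 with 12 members at an unadjusted p under 0.05 in the fit with the lncRNA share, and 0.03 in the fit with the choroid plexus score.

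The count of 14 moved with single libraries. Without control male replicate 4 or 6 of P90 it was 0. It was 1 without male replicate 5 of P90 or female replicate 3 or 4 of P42, and 2 without female replicate 1 of P90, male replicate 5 or 7 of P42 or female replicate 2 of P42. It was 3 without male replicate 3, 6 or 8 of P42 or female replicate 3 of P90, 5 without female replicate 2, 7 or 8 of P90, 6 without female replicate 5 of P42 and 8 without male replicate 2 of P42. It was 24 without male replicate 1 of P42, 35 without male replicate 2 of P90 and 38 without female replicate 4 of P90, the library with the lowest score. The median change stayed between 0.16 and 0.27 in these 30 fits. Cox7a2l passed in 28 of 30, Ndufb8 in 25, Ndufs7 and Ndufa5 in 19 and the other 10 members in 8 to 16.

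With the 2 libraries of controls that stand apart left out, 0 members passed and the median was 0.12, and 852 genes passed in all. With the lncRNA share as a covariate 0 passed and the median was 0.04, with 700 genes passing. With the choroid plexus score as a covariate 0 passed and the median was 0.18. Without the sex-mismatched libraries 1 passed, with a median of 0.23. DESeq2 gave 19, voom with quality weights 7, and a fit of all 54 libraries 33.

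Changes also followed the length of the gene. Across the 75 abundant members, Spearman's rho between gene length and the age change averaged over sexes was -0.61, which is across genes that are not independent. It was -0.81 in complex I and -0.59 in complex V. Over all genes tested, the median change fell from 0.08 in the shortest of 5 equal bins of length (up to 1619 bases) to -0.10 in the longest (from 7689 bases). The members' median of 0.23 over those 75 lay above that of the shortest bin. Among short complex I members, Ndufa8, Ndufb8 and Ndufa3 were highest, and the long Ndufa10 (4664 bases) stood at 0.12.

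**Figure D5:**
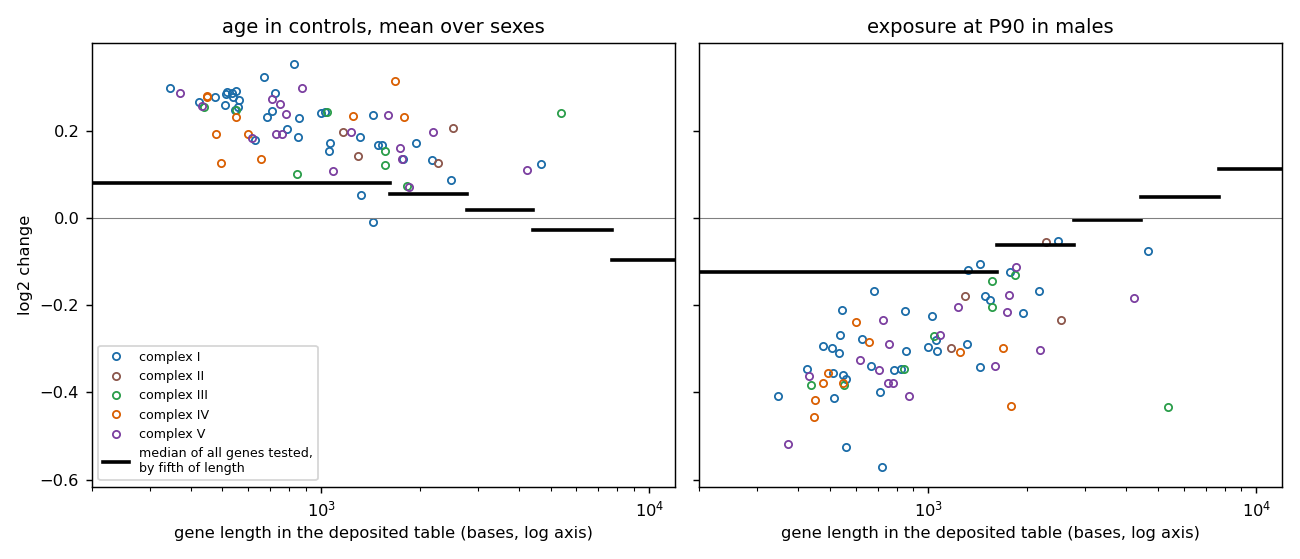
log2 change of the 75 abundant members against gene length in the deposited table (bases, log axis), for age in controls and for exposure in males at P90; black bars are medians of all genes tested in 5 bins of length. Shorter members tend to lie farther from 0, upward at left and downward at right, while Uqcrq (5387 bases) lies far from 0 in both panels.

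Other genes of the pathway, from lists, rose with age in part. Of 45 assembly factors tested 8 rose and 0 fell, led by Coa3 (0.35 ± 0.08, adjusted p = 0.00597) and Surf1 (0.25) for complex IV, Uqcc2 (0.29) for complex III and Tmem70 (0.19) for the ATP synthase. Of 6 subunits and partners outside the name rule Atp5if1, the inhibitor that stops ATP synthase from running backward, rose (0.31), while Cox4i1 (0.26, adjusted p = 0.054) and cytochrome c, Cycs (0.17), did not pass. Of 29 mitochondrial ribosomal proteins 7 rose, among them Mrpl13 (0.29), and of 18 carriers and pores 4, among them Tomm7 (0.30) of the import channel. Of 19 citric acid cycle genes Suclg2 (0.38) and Pc (0.21) rose, and of 16 glycolysis genes 4, led by Aldoc (0.48). Aldoc is also on the list of astrocyte markers. None of the 16 regulators of mitochondrial biogenesis passed, and their median was -0.01, with Tfam, which packages mitochondrial DNA and activates its transcription, at 0.17 and Nrf1 at -0.07.

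Beside them, 24 of 25 cytosolic ribosomal proteins rose (median 0.40), and so did 4 of 12 microglial genes (median 0.33), such as C1qc (0.67), and 6 of 12 astrocyte genes (median 0.19), such as S100b (0.49). Of 15 medium spiny neuron genes none passed (median -0.15). Of the choroid plexus markers none of 13 passed (median 0.17). Their summed level in control males ran from 23.3 to 1955 CPM at P42 (median 91.4) and from 75.9 to 3918 CPM at P90 (median 991). In control females it ran from 51.0 to 1523 CPM at P42 (median 133) and from 97.995 to 852 CPM at P90 (median 210). The part of these markers in the members' change was not tested beyond the covariate fit.

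Exposure at P90 asked whether prenatal plus adolescent ethanol left a difference in adults. In males 0 of 90 members passed, as did 0 of 24018 genes in all by edgeR, against 3 genes by DESeq2 and 1 by voom. At the same time 51 members lay at an unadjusted p under 0.05 (56.7%, where 8.74% of all genes did), all of them lower in PAE-AAE. Of the 90 members 87 were lower, while 51.9% of all genes tested were higher. The median was -0.31, against 0.01 for all genes tested. All 5 complexes shared the direction, with medians over abundant members of -0.30 for complex I, -0.21 for complex II, -0.31 for complex III, -0.37 for complex IV and -0.30 for complex V.

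Other lists moved beside the members in this comparison, with no gene of theirs past the threshold. Median changes were -0.37 for cytosolic ribosomal proteins (0 of 25 positive), -0.86 for choroid plexus markers (1 of 13), -0.49 for microglia (0 of 12) and -0.47 for oligodendrocytes and myelin (0 of 12). Cortical excitatory neuron markers stood at -0.43 (0 of 10). Those of endothelial cells stood at 0.33 (11 of 11) and of pericytes and smooth muscle at 0.47 (10 of 11), while medium spiny neuron markers were at 0.09. The part of these markers in the result was not tested beyond the covariate fit.

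The lowest p belonged to Ndufs5, a small subunit of complex I (-0.57 ± 0.16, adjusted p = 0.552), Ndufa2 (-0.53 ± 0.17) and Atp5f1e (-0.52 ± 0.17). Ndufs5 ran from 51.0 to 102.8 CPM in controls (median 65.4) and from 32.8 to 57.4 CPM in PAE-AAE (median 51.3). Ndufa2 ran from 26.6 to 63.8 CPM in controls (median 37.8) and from 24.9 to 30.8 CPM in PAE-AAE (median 28.7). Atp5f1e ran from 64.1 to 150 CPM in controls (median 84.9) and from 54.7 to 79.2 CPM in PAE-AAE (median 67.5). In each the groups overlapped, and the controls were the wider group. On the higher side Atp5mgl4 (0.49 ± 0.64), Atp5mc1l1 (0.13 ± 0.39) and Ndufa4l2 (0.07 ± 0.16), all low in counts, had the smallest p. Among core subunits, none past the threshold, the change was -0.05 for Ndufs1, -0.12 for Ndufv1, -0.22 for Ndufs7, -0.29 for Ndufs8 and -0.30 for Ndufv2. It was -0.06 for Sdha, -0.23 for Sdhb, -0.20 for Uqcrfs1, -0.11 for Atp5f1a and -0.18 for Atp5f1b.

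The male difference rested in part on control replicate 6 of P90, which had the highest score of all libraries (0.62). Its choroid plexus score was the highest of all too (3.26). It held 53.3 CPM (without TMM factors) of Xist, a female marker, under the mismatch bound of 100 CPM. The next male with matched markers held 30.8 CPM. The part of these features in the result was not tested beyond the covariate fit. Without replicate 6 of the controls 7 members lay at an unadjusted p under 0.05 and the median was -0.19. Without control replicate 4 there were 24, without PAE-AAE replicate 5 there were 31, without PAE-AAE replicate 2 there were 32. Over the 12 fits without 1 adult male the median stayed between -0.37 and -0.19. Holding the lncRNA share as a covariate, 10 members lay at an unadjusted p under 0.05 and the median was -0.09. With the choroid plexus score as a covariate 1 did, with a median of -0.17. Gene length went with the change here too, at rho = 0.61 over the 75 abundant members, and the median over all genes rose from -0.12 in the shortest bin to 0.11 in the longest.

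In adult females 0 members passed, and by edgeR 0 lay at an unadjusted p under 0.05 (4.23% of all genes did). Voom with quality weights gave 22 at that p. Of the 90 members 83 were higher in PAE-AAE, where 45.1% of all genes were. The members' median was 0.12, against -0.02 for all genes tested. Ndufs7 (0.21 ± 0.10), Atp5mc2l2 (0.98 ± 0.51) and Cox6a1 (0.27 ± 0.16) had the smallest p on the higher side, and Atp5mc2l1 (-1.49 ± 0.83), Ndufb11b (-0.62 ± 0.92) and Ndufs4 (-0.02 ± 0.09) on the lower. Ndufs7 stood at 93.2, 77.2, 87.4, 87.8 and 103.8 CPM in the PAE-AAE females and between 61.3 and 101.4 CPM in controls (median 76.4). These values overlapped. Without control female replicate 1, 8 members lay at an unadjusted p under 0.05, and without both outlying adult libraries 22 did, with a median of 0.17. After the lncRNA share entered the fit, the median was -0.02. Choroid plexus markers had a median of 0.96 here (13 of 13 positive), cytosolic ribosomal proteins 0.20 (25 of 25) and medium spiny neuron markers 0.22 (15 of 15), none past the threshold. Cortical excitatory neuron markers were at -0.20 (4 of 10), again with none past it. Their median summed level by library went the other way, with 638 CPM in PAE-AAE females and 473 CPM in controls.

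The difference between the sexes was tested on its own. As the female minus the male exposure effect at P90 it gave 0 members past the threshold by edgeR, DESeq2 and voom. By edgeR 49 members lay at an unadjusted p under 0.05 (54.4%, where 10.6% of all genes did), all positive, and the median was 0.43. The lowest p belonged to Atp5f1e (0.79 ± 0.24, adjusted p = 0.423), Atp5mc2 (0.48 ± 0.15), a c-ring gene, and Ndufs5 (0.66 ± 0.22). The negative side held 2 members, Atp5mc2l1 (-0.87) and Atp5mgl4 (-0.39), while 46.0% of all genes tested were positive. Without control male replicate 6 the count was 18 with a median of 0.31. In the fit that held the lncRNA share, it was 1 with a median of 0.08, and with the choroid plexus score 1 with a median of 0.24. Averaged over the sexes at P90, 0 members passed, where 0.00416% of all genes did. At an unadjusted p under 0.05 lay 1 member, Ndufs5 (-0.24 ± 0.11), and 3.26% of all genes. The members' median was -0.09 with 6 of 90 positive, where 45.7% of all genes were. That direction was lost without the outlying libraries, where the median was 0.002 with 48 positive. The lncRNA covariate gave 10 members at an unadjusted p under 0.05 and a median of -0.05.

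In males at P42, 84 of 90 members were higher after prenatal exposure, where 52.7% of all genes were, and none passed the test. There 0 of 90 members and 0 of 24741 genes passed by edgeR, against 24 genes by DESeq2 and 1 by voom. By edgeR 15 members lay at an unadjusted p under 0.05 (16.7%, where 8.96% of all genes did), all higher, and the median was 0.13. Of the 15, 8 were ATP synthase genes, with Atp5f1e (0.26 ± 0.09, adjusted p = 0.421), Atp5pb (0.18 ± 0.06) and Atp5pd (0.19 ± 0.07) at the smallest p. Atp5f1e ran from 73.03 to 115.1 CPM in PAE-VEH males (median 79.5) and from 56.3 to 90.2 CPM in controls (median 69.9). On the lower side were Ndufa4l2 (-0.14), Ndufb11b (-0.57 ± 0.69) and Atp5mkl1 (-0.08), none past the threshold. PAE-VEH replicate 6 has a score of 0.44. Of all 54 libraries it also had the highest cortical excitatory neuron score (2.88) and the lowest ependymal cilia score (-3.11). Without it 3 members lay at an unadjusted p under 0.05 and the median was 0.07. With the lncRNA share as a covariate 2 did, with a median of 0.03, and without the sex-mismatched libraries 8 did. The choroid plexus score as a covariate raised the count to 28, with a median of 0.15. Choroid plexus markers had a median of -0.34, cytosolic ribosomal proteins 0.19, astrocyte markers 0.18 and cortical excitatory neuron markers 0.22 (8 of 10 positive), with no gene past the threshold. The median summed level by library went the other way for cortical markers (627 CPM in PAE-VEH, 812 in controls) and choroid plexus (158 and 91.4). For cytosolic ribosomal proteins and astrocytes it was higher in PAE-VEH, as in the fit.

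In adolescent females 0 members and 0 genes passed by edgeR, against 86 genes by DESeq2 and 36 by voom. By edgeR 5 members lay at an unadjusted p under 0.05 (5.56%, where 11.3% of all genes did), with a median of 0.10. Atp5mc1, another c-ring gene, had the smallest p (0.32 ± 0.10, adjusted p = 0.242). It stood at 103.2, 91.8, 98.2 and 99.3 CPM in the 4 PAE-VEH females and between 68.1 and 87.6 CPM in the 7 controls (median 80.9). It was picked by its p, and how many of all genes separate the groups in this way was not counted. Ndufs3 (0.24 ± 0.09) and Uqcr11 (0.29 ± 0.12) followed, and the lower side held Atp5mc2l1 (-1.44 ± 0.98), Ndufb11b (-0.79 ± 0.95) and Atp5mc2l2 (-0.40 ± 0.56). The count was 2 to 11 when 1 female was left out, with 11 without control replicate 1 and 2 without PAE-VEH replicate 2. It was 12 without the outlying library of the age, 12 with voom and 11 with no filter on low counts. Once the lncRNA share was a covariate, the median was 0.002. Medium spiny neuron markers had a median of 0.46 (15 of 15 positive) and cortical excitatory neuron markers 0.62 (8 of 10). Choroid plexus markers had a median of -1.17 (0 of 13). Their median summed level by library went the other way, with 191 CPM in PAE-VEH females and 133 CPM in controls. The controls reached 1523 CPM, and control replicate 7 had a choroid plexus score of 2.58. No gene of these lists passed the threshold, and their part in the result was not tested beyond the covariate fit.

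Averaged over the sexes at P42, 0 members passed and 28 lay at an unadjusted p under 0.05 (31.1%, where 10.9% of all genes did), all of them higher, with a median of 0.11. Atp5mc1 (0.23 ± 0.06), Ndufs3 (0.20 ± 0.06) and Atp5pb (0.17 ± 0.05) came first by p (adjusted p = 0.338 for each). In a fit with the lncRNA share 3 members lay at an unadjusted p under 0.05, with a median of 0.02, against 18 without the sex-mismatched libraries, 20 without the outlying one and 11 with all 54 libraries in 1 fit. The female minus male difference had 0 members past the threshold and 1 at an unadjusted p under 0.05 (10.6% of all genes), Ndufa4l2 (0.42 ± 0.20). Its median over the members was -0.02 with 29 of 90 positive, where 44.9% of all genes were. Without the outlying library the median was 0.04 with 59 positive, and in the fit with the lncRNA share it was -0.02. The P42 comparison shares its control libraries with the age comparison, and the same holds at P90.

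Between control males and females 0 members passed at either age. At P42 the median of female minus male was -0.07 and 1 member, Ndufa4l2 (-0.30 ± 0.13), lay at an unadjusted p under 0.05 (6.08% of all genes). At P90 the median was -0.13 and 3 members did (5.85% of all genes): Cox8b (-1.72 ± 0.69), Atp5f1e (-0.34 ± 0.15) and Cox7a2 (-0.32 ± 0.15). Of all genes 0 passed at P42 and 12 at P90 (0.0499%). The P42 groups hold sex-mismatched libraries. Xist stood at 726 CPM in control male replicate 8 and 0.78 CPM in control female replicate 5 (without TMM factors). The 0 at P42 therefore cannot be read as an absence of sex differences. The count at P90 ran from 0 without control male replicate 6 (median -0.02) to 15 without control male replicate 2 or control female replicate 1, and was 1 without the outlying libraries. With the lncRNA share in the fit the median at P42 turned to 0.10, with 14 members at an unadjusted p under 0.05, and that at P90 was -0.01 with 2.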

How the data were processed

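The authors deposited 1 table with raw read counts and FPKM values per gene for 54 libraries. Reads were trimmed with fastp and aligned with HISAT2 2.0.5, per the submitters' processing notes, and libraries were not strand-specific, per the labels' protocols. For the counting tool, genome build and annotation, nothing is given in the sources used here. The 720 rows with no gene name, 0.271 to 0.412% of counts, were left out. Deposited counts were tested with edgeR 4.0.16 (R 4.3.3; TMM, filterByExpr, quasi-likelihood, Benjamini-Hochberg threshold 0.05, two-sided) in 3 fits: adolescents (29 libraries, 24741 genes), adults (25, 24018) and controls (30, 24065), with 14 comparisons in all. Deposited FPKM gave levels only. CPM used TMM factors, with a prior count of 2 on the log2 scale. Alternatives were DESeq2 1.42.0, limma 3.58.1 (voom) and those in the closing section. Fits were tested on simulated data.

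The members and gene lists were chosen with earlier results of these data known. Named genes were the highest and lowest member of each complex by FPKM, core subunits, tissue isoforms, and in each comparison up to 4 members per complex past the threshold or, where fewer than 5 passed, the 3 with the smallest p in each direction. Complex I members past the threshold beyond those 4, Ndufa13, Ndufa7, Ndufb10, Ndufs5, Ndufb4 and Ndufa3, and members singled out by their correlation were named after their values were seen. Libraries standing apart had a median correlation over 3 scaled MADs below that of their age. Some genes that this rule names are not reported here.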

Additional observations from a re-analysis of the deposited data

Results flagged for a closer look

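In 13 of 88 groups examined, 1 library lay far from the others of its group by Dixon's criterion, which chance meets in about 1 group in 20. PAE-VEH male replicate 6 at P42 accounted for 7 of them, with a score of 0.44 over all members, 0.39 for complex I, 0.33 for complex II and 0.51 for complex III, and with 1534 CPM of Atp5f1b, 147.2 CPM of Cox7a2l and 166.8 CPM of Ndufb8. PAE-AAE female replicate 3 at P90 was highest in its group for the complex IV score (0.43) and for Cox8b (1.59 CPM). Cox8b was also far from the rest in PAE-VEH male replicate 3 at P42 (0.858 CPM), control female replicate 7 at P42 (0.519 CPM) and control female replicate 8 at P90 (0.815 CPM). Cox6a2 stood at 0.447 CPM in control female replicate 1 at P42.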

How the results depend on the processing

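No paired analysis was possible because replicate numbers come only from the order of deposition. The count of 14 members that rose with age over both sexes became 8 with RLE size factors, 2 with no filter on low counts, 19 with DESeq2, 7 with voom, 1 without the sex-mismatched libraries, 33 with all 54 libraries in 1 fit, and 0 without outlying libraries, with the lncRNA share or with the choroid plexus score as a covariate. Leaving out 1 library gave 0 to 38. In control males the count of 0 became 1 with no filter and 4 with all 54 libraries, and 0 to 7 when 1 library was left out. With the lncRNA share as a covariate the median change was 0.0361 for age over both sexes, -0.0244 for age in females, -0.0869 for exposed males at P90 and 0.0763 for the female minus male difference there, which was 0.24 with the choroid plexus score. Genes called with age in all were 1727, and 1098, 852, 700 and 781 without sex-marker mismatches, without outlying libraries, with the lncRNA share and with the choroid plexus score. The cause was not tested. Leaving out each adult male was added after the data were seen. The 17 members under 10 counts are too shallow for a comparison.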
